A study of Mus musculus with 3 samples.

Results

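RNA levels of 10 genes tied to glucocorticoids were read in RNA-seq libraries of newborn mouse intestine, without a measure of hormone or receptor activity. The genes were the glucocorticoid receptor gene Nr3c1 and 9 genes that glucocorticoids are known to induce (Fkbp5, Zbtb16, Tsc22d3, Sgk1, Klf9, Dusp1, Errfi1, Map3k6 and Slc10a6). They are 10 of the 21983 genes in the deposited table, found by symbol, and each symbol matched 1 row. The genes were chosen by name with their levels in all 3 of these libraries already known, so those levels are a description and no test was made of them. There were 3 wild-type groups with 1 library each. Control pups stayed with the dam and received PBS, without hypoxia or cold. NEC pups went through a model of necrotizing enterocolitis, an inflammatory bowel disease of the newborn. They were given PBS and 40 µl of 33% formula by gavage every 4 h for 96 h, with hypoxia in 99.9% nitrogen for 100 s and then 10 min of cold at 4 °C every 12 h. PCI34051+NEC pups went through that model while receiving PCI34051 at 10 mg/kg a day for 5 days. PCI34051 is a selective inhibitor of HDAC8, a zinc-dependent lysine deacetylase. The labels used here give no strain, sex or age nor whether RNA of 1 pup or of several went into a library. Formula feeding, hypoxia and cold differ from the control together and cannot be told apart.

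Glucocorticoids are steroid hormones of the adrenal cortex, released in stress and fasting. They bind a receptor that waits in the cytoplasm on HSP90 with helper proteins. The bound receptor enters the nucleus and attaches as a dimer to glucocorticoid response elements, palindromes whose arms are split by a spacer of 3 bases. In the intestine of the suckling rodent, glucocorticoids are known for advancing the maturation of the epithelium and for dampening inflammatory genes.

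Levels are TMM-normalised read counts scaled to a common depth (CPM). Intervals in parentheses are 95% intervals that cover counting error only. They treat reads as independent, which reads amplified by PCR and carrying no molecular identifier are not, so they may be too narrow. With 1 library per group there is no replicate to check a difference against and no p-value, and the values describe libraries rather than conditions. All 3 comparisons draw on the same libraries and are not independent of each other. Log2 differences are on log2(CPM + 1), which understates those of low genes. A gene was measured in a comparison at 1 CPM or more in either library, and called higher or lower where the values were 2-fold or more apart on that scale. Total counts were 15076413 for control, 10650638 for NEC and 16497580 for PCI34051+NEC. Mitochondrially encoded genes took 4.88%, 32.4% and 3.73% of the counts in that order, so the NEC library stands apart. The epithelial markers of the labelled tissue were present in every library (10 genes summing to 8788, 3551 and 8883 CPM, in the same order). In bulk tissue, fewer cells of a type and less RNA per cell cannot be told apart.

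Every gene of the set except Nr3c1 and Klf9 stood higher in NEC than in control, by amounts from 1.497-fold for Errfi1 to 209-fold for Slc10a6. Of the 10, 5 passed the 2-fold mark (Fkbp5, Zbtb16, Tsc22d3, Map3k6 and Slc10a6), 1 was lower (Nr3c1) and 4 stayed under it. Of the 14627 genes measured in this comparison 47.1% differed by 2-fold or more, 24.2% upward and 22.9% downward. The median log2 difference of the 10 was 1.37, beside -0.03 over all genes. Against the control the PCI34051+NEC library had 8 of the 10 higher and none lower, with 6.55% of 13652 measured genes higher and 13.1% apart in either direction. There the median was 2.05, beside -0.00 over all genes. In PCI34051+NEC against NEC, 5 were higher and 2 lower, where 25.0% of 14410 genes were higher and 50.6% apart, with a median of 1.01 beside 0.01. The choice of genes used these same contrasts, so nothing is read from these shares. Summed over the 10, the level was 349 CPM in control, 1197 CPM in NEC and 2852 CPM in PCI34051+NEC, of which Sgk1 alone made up 39.96%, 22.5% and 47.8%.

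**Figure D1:**
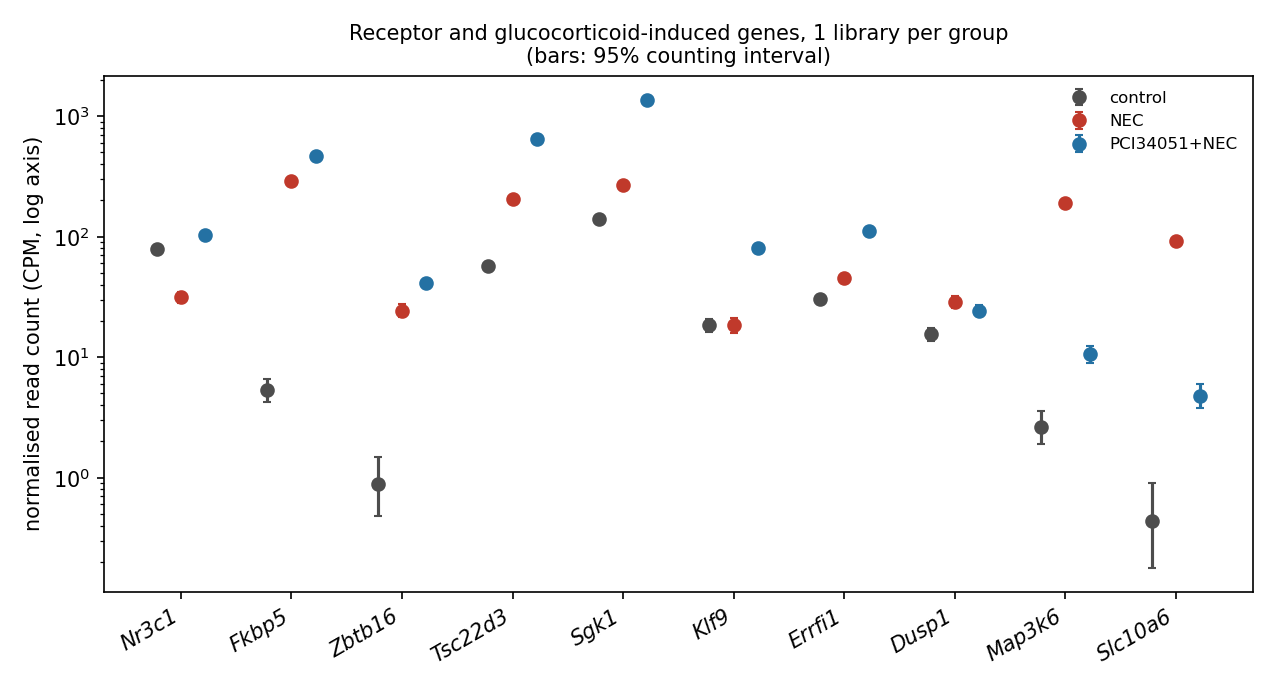
Normalised read count (CPM, log axis) of each of the 10 genes in the 3 libraries, 1 point per library, with 95% counting intervals as bars. Fkbp5 lies at 5.35, 292 and 471 CPM, while Map3k6 and Slc10a6 are high only in the NEC library among the 3, at 191 and 92.1 CPM.

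Promoter sequence was read to show what stands next to the genes whose levels are reported. RefSeq (GRCm38.p6) gave windows of 250 bases before a transcription start for 8 of the 10 genes, 16 windows in all. Nr3c1 and Zbtb16 had no entry. The full palindrome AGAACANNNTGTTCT, the textbook glucocorticoid response element, was searched on both strands and stood in 3 of 32851 windows (0.00913%), 1 of them before Sgk1. A looser core, GNACANNNTGTNC, which the full palindrome contains, stood in 127 windows (0.387%). Those included 3 of the 16 windows here, before Sgk1, Map3k6 and Slc10a6. Many of the receptor's known elements lie far outside such windows, and a match is a description of letters, not a site of binding. The 250 bases before each of these starts are given 5′ to 3′ on the strand of the gene, with the core in capitals. Those of Fkbp5, the gene with the highest fold over control of the 10 in PCI34051+NEC, follow for contrast, without the core and with an E-box (CACGTG, the element of the clock proteins) in capitals.
Sgk1, chr10:21993640-21993889, plus strand: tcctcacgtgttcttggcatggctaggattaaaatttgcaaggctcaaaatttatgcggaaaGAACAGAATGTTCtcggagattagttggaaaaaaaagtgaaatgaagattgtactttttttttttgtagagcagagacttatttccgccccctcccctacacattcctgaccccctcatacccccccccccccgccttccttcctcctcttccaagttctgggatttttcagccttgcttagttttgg
Map3k6, chr4:133240568-133240817, plus strand: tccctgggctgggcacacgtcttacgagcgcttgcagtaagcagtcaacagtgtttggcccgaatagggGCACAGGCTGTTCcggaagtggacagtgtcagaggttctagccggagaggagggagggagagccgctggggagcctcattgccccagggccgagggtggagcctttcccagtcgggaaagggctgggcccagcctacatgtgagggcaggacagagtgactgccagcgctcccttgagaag
Slc10a6, chr5:103629404-103629653, minus strand: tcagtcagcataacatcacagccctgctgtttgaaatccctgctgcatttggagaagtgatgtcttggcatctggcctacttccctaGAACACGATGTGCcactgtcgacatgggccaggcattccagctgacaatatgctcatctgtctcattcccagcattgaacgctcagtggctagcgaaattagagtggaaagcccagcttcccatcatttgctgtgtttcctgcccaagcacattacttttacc
Fkbp5, chr17:28486150-28486399, minus strand: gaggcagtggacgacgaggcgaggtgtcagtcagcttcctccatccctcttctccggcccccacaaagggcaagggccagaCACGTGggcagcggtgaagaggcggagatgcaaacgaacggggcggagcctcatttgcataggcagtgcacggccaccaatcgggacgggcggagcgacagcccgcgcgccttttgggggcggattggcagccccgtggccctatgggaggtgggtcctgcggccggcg

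Sgk1 has several of the 16 windows, before starts at 21882184, 21978672, 21986104, 21992223, 21993890 and 21994666. Among them only the window of the start at 21993890 holds the core. That core lies 188 to 176 bases before the start, inside the annotated span of the gene but in no exon. The cores of Map3k6 (181 to 169 bases before its start) and Slc10a6 (163 to 151 bases before) lie outside the annotated spans and exons. Both Map3k6 and Slc10a6 cores depart from the full palindrome. Single arms (AGAACA, part of the full palindrome) were common, in 16.1% of all windows. They stood in 5 of the 16, before Slc10a6, Tsc22d3 and the Sgk1 starts at 21882184, 21992223 and 21993890. Another pair of motifs was looked for after the windows had been seen. A cyclic AMP response element (TGACGTCA, in 1.55% of all windows) stood before Dusp1 and Errfi1, and an E-box (in 6.02%) before Dusp1, Fkbp5 and Sgk1.

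Nr3c1 (ENSMUSG00000024431, chromosome 18, 39410545 to 39519421, minus strand, mm10) encodes the receptor itself. Its level was 78.7 CPM in the control library, 31.5 CPM in NEC and 103 CPM in PCI34051+NEC. It was the only gene of the set at its lowest in NEC beyond the 2-fold mark. NEC was 2.498-fold lower than control (2.22 to 2.82), and PCI34051+NEC was 3.26-fold higher than NEC (2.896 to 3.67) and 1.304-fold higher than control (1.21 to 1.41). Nr3c2, the mineralocorticoid receptor that binds the same corticosteroids and was taken as its nearest relative, had the same order at 9.75, 4.11 and 20.04 CPM. Its NEC level rests on 45 counts.

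Fkbp5 (ENSMUSG00000024222, chromosome 17, 28399094 to 28517527, minus strand) encodes FKBP51, an HSP90 co-chaperone that lowers the receptor's affinity for hormone and so closes a feedback loop. It was counted 85 times in the control library, 3201 times in NEC and 7171 times in PCI34051+NEC, or at 5.35, 292 and 471 CPM. Both model libraries lay far above the control: NEC was 54.7-fold higher (44.1 to 68.6) and PCI34051+NEC 88.1-fold higher (71.1 to 110.4). Ordered by log2 difference from control, it was gene 5 of 14627 in NEC and gene 2 of 13652 in PCI34051+NEC. The 2 model libraries were closer to each other, 1.61-fold apart (1.55 to 1.68).

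Zbtb16 (ENSMUSG00000066687, chromosome 9, 48654297 to 48836222, minus strand) encodes PLZF, a zinc finger transcriptional repressor. It followed the order of Fkbp5 at a lower level, at 0.881 CPM in control (14 counts), 24.3 CPM in NEC and 41.3 CPM in PCI34051+NEC. NEC was 27.6-fold higher than control (16.1 to 51.1) and PCI34051+NEC 46.8-fold higher (27.7 to 86.2). The wide intervals come from the 14 control counts. PCI34051+NEC was 1.698-fold above NEC (1.47 to 1.97).

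Tsc22d3 (ENSMUSG00000031431, chromosome X, 140539528 to 140600659, minus strand) encodes GILZ, a leucine zipper protein that binds and restrains NF-κB and AP-1. Its level was 57.6 CPM in control, 204 CPM in NEC and 641 CPM in PCI34051+NEC. Each step was of like size: NEC was 3.54-fold above control (3.28 to 3.83) and PCI34051+NEC 3.14-fold above NEC (2.998 to 3.29). Against control, PCI34051+NEC was 11.1-fold higher (10.4 to 11.9). The gene is X-linked, and the Y-linked Eif2s3y, looked up after its values were seen, was counted 999, 0 and 1134 times in control, NEC and PCI34051+NEC. The sex makeup of the libraries thus differed, and its part in the Tsc22d3 levels was not tested.

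A second kind of pattern was led by the PCI34051+NEC library. Sgk1 (ENSMUSG00000019970, chromosome 10, 21882184 to 21999903, plus strand), a kinase of the AKT type that raises sodium and nutrient transport in epithelia, was at 139.6, 269 and 1365 CPM. NEC was 1.93-fold above control (1.82 to 2.04), just short of the mark on the log2 scale at 0.94. PCI34051+NEC was 5.07-fold above NEC (4.88 to 5.27) and 9.78-fold above control (9.36 to 10.2). It was the gene with the full palindrome among the promoter windows shown.

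Klf9 (ENSMUSG00000033863, chromosome 19, 23141226 to 23168134, plus strand), a Krüppel-like transcription factor, was at 18.4 CPM in control, 18.4 CPM in NEC and 81.1 CPM in PCI34051+NEC. The ratio of NEC to control was 1.004, with an interval of 0.835 to 1.21 that spans equality. PCI34051+NEC was 4.41-fold above control (3.88 to 5.03). Errfi1 (ENSMUSG00000028967, chromosome 4, 150853919 to 150868892, plus strand) encodes MIG6, which inhibits the EGF receptor family. Its level was 30.2, 45.2 and 111 CPM. NEC was 1.497-fold above control (1.32 to 1.701), and PCI34051+NEC was 2.45-fold above NEC (2.22 to 2.72) and 3.67-fold above control (3.32 to 4.07).

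Map3k6 and Slc10a6 made up another pattern, with NEC far above both other libraries. Map3k6 (ENSMUSG00000028862, chromosome 4, 133240818 to 133252929, plus strand) encodes ASK2, a stress-activated kinase of the MAP kinase cascades. It was counted 42, 2087 and 161 times in control, NEC and PCI34051+NEC, or at 2.64, 191 and 10.6 CPM. NEC was 72.1-fold above control (53.2 to 100.4), and PCI34051+NEC was 18.02-fold below NEC (15.3 to 21.3). The PCI34051+NEC library remained 4.002-fold above control (2.83 to 5.76).

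Slc10a6 (ENSMUSG00000029321, chromosome 5, 103605711 to 103629403, minus strand) encodes SOAT, a sodium-dependent carrier of sulphated steroids. It was counted 7, 1009 and 73 times, or at 0.4404, 92.1 and 4.796 CPM. NEC was 209-fold above control (101 to 522), gene 2 of 14627 by log2 difference. PCI34051+NEC was 19.2-fold below NEC (15.1 to 24.7) and 10.9-fold above control (5.03 to 28.03). The control level rests on 7 counts. These 2 genes reached log2 differences from NEC of -4.05 and -4.01, while the 7 other induced genes ran from -0.23 to 2.34.

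Dusp1 (ENSMUSG00000024190, chromosome 17, 26505590 to 26562128, minus strand), the phosphatase that switches off the p38 and JNK kinases, differed least from control among the 9 induced genes in PCI34051+NEC. Its level was 15.5 CPM in control, 28.9 CPM in NEC and 24.4 CPM in PCI34051+NEC. NEC was 1.86-fold above control (1.57 to 2.21), and PCI34051+NEC was 1.57-fold above control (1.34 to 1.86). Its annotated span overlaps Ergic1 and Gm8225 on the other strand. The strand setting of the counting is not known here, so reads of these genes may be shared.

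Levels of different genes can be compared only per length, here as CPM per kilobase of merged exons. In the control library Sgk1 was highest at 28.5, followed by Tsc22d3 at 13.3, Nr3c1 at 10.2 and Errfi1 at 8.43. Dusp1 (4.67) and Klf9 (3.82) had overlapping counting intervals, as had Map3k6 (0.574) and Fkbp5 (0.565), and Slc10a6 (0.207) and Zbtb16 (0.167) at the bottom. In NEC, Sgk1 at 54.9 was followed by Tsc22d3 (47.02), Slc10a6 (43.4) and Map3k6 (41.4), each overlapping the next of these 3, then by Fkbp5 at 30.9. The receptor gene at 4.10 stood near the bottom there, between Zbtb16 (4.598) and Klf9 (3.83) and overlapping both. In PCI34051+NEC, Sgk1 reached 278, Tsc22d3 148, Fkbp5 49.8, Errfi1 30.96 and Klf9 16.8. Map3k6 (2.297) and Slc10a6 (2.26) were lowest and overlapped.

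A wider list of 33 other genes known to be induced by glucocorticoids was read in the same way. In NEC against control, 15 of 31 measured were called higher and 5 lower (Cdkn1c, Trim63, Pck1, Scnn1a and Mertk), and the list had a median log2 difference of 0.96. In PCI34051+NEC against control, 13 of 30 were higher and none lower, with a median of 0.82. In PCI34051+NEC against NEC, 12 of 31 were higher and 5 lower (Cebpd, Plin4, Tat, Sult1a1 and Tgm2), with a median of 0.46. The corresponding shares over all genes are those given above. The list was drawn up with earlier results of these data known, so its direction is no independent evidence.

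Pdk4, the kinase that shuts pyruvate dehydrogenase in fasting, was at 15.3 CPM in control, 78.2 CPM in NEC and 276 CPM in PCI34051+NEC. That was a step up each time, with PCI34051+NEC 18.02-fold above control (15.8 to 20.6), gene 8 of 13652. Mt2, a metal-binding metallothionein, had the same order at 111, 846 and 1787 CPM, as had its neighbour Mt1 at 478, 1672 and 3978 CPM. Angptl4, an inhibitor of lipoprotein lipase, was at 7.74, 57.99 and 79.9 CPM. Per1, a clock gene with a classical glucocorticoid response element, was highest in NEC at 260.2 CPM, against 29.6 CPM in control and 179.7 CPM in PCI34051+NEC. Cebpd, a transcription factor of the acute-phase response, was also highest in NEC, at 10.9, 118 and 44.1 CPM. The 6 genes named here were above control in both model libraries, and they differed in which of those libraries was the higher. They were named for a large difference from control, by name, or (Mt1) for likeness to the members. Their standing above control thus follows from that choice and does not speak for the list, of which 5 genes were lower in NEC.

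RefSeq windows were found for 27 of these 33 genes, 32 windows in all. The full palindrome stood in none of them. The looser core stood in 5 windows (15.6%), of Fam107a, where 2 windows overlap, Mt1, Trim63 and Txnip. For comparison, 29 bases around each core are shown beside those of the 3 genes above, with the core in capitals, on the strand of the gene. These further genes are named for the match alone.
Sgk1, chr10:21993694-21993722: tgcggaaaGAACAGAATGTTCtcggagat
Map3k6, chr4:133240629-133240657: gaatagggGCACAGGCTGTTCcggaagtg
Slc10a6, chr5:103629546-103629574: cttccctaGAACACGATGTGCcactgtcg
Mt1, chr8:94178987-94179015: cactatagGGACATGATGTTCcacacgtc
Fam107a, chr14:8309877-8309905: ggtggcttGGACATGGTGTTCtgagtctc
Trim63, chr4:134314904-134314932: ctggctctGAACAGTCTGTTCttgtttac
Txnip, chr3:96557777-96557805: cgctaggaGCACACCGTGTCCacgcgccc

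The genes with a core did not share 1 pattern of levels. Sgk1 and Mt1 were highest in PCI34051+NEC, whereas Map3k6 and Slc10a6 were highest in NEC and low in PCI34051+NEC. Fam107a was at 0.629, 5.02 and 2.496 CPM in control, NEC and PCI34051+NEC, its control level resting on 10 counts. In the same order, Trim63 was at 5.35, 1.096 and 4.53 CPM, lowest in NEC on 12 counts, and Txnip at 233, 313 and 286 CPM. Fkbp5 was far above control in both model libraries without a core in its window. The Txnip core lies in an exon of Gm15441 on the other strand, and the Fam107a core lies within the gene but in no exon.

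Relatives of each induced gene except Errfi1 were read to see whether a whole family stood where its member did. Most did not. The 12 other measured FK506-binding protein genes had a median log2 difference from control of -0.15 in NEC, with 3 higher (Fkbp2, Fkbp10 and Fkbp11) and 2 lower (Fkbp1b and Fkbp9), against 5.53 for Fkbp5. In PCI34051+NEC their median was -0.18, with 1 lower (Fkbp1b) and none higher, against 6.22 for Fkbp5. Fkbp4, the co-chaperone FKBP52 that helps the receptor into the nucleus and opposes FKBP51, was at 110.4, 59.3 and 87.3 CPM, lower in both model libraries by under 2-fold. Tsc22d1 and Tsc22d4 differed from control by at most 0.31 on the log2 scale in either direction, and Tsc22d2 was 1.12 higher in PCI34051+NEC and 0.51 lower in NEC (a log2 difference of -0.51).

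Sgk2 and Sgk3, the other two SGK kinases, were both highest in PCI34051+NEC and, unlike Sgk1, lowest in NEC. Sgk2 was at 25.9, 16.9 and 80.3 CPM in control, NEC and PCI34051+NEC, and Sgk3 at 68.5, 20.1 and 106 CPM. The Krüppel-like family followed Klf9 in part: of 12 measured relatives, 6 were higher than control in PCI34051+NEC and none lower. Over all measured genes 6.55% were higher and 6.55% lower there. The median of these relatives was 1.00, against 2.08 for Klf9. Klf4, a factor of differentiating epithelium, was at 132, 78.5 and 372 CPM. Klf15, itself induced by glucocorticoids in muscle and liver, stood apart with 2.01, 31.96 and 11.4 CPM, highest in NEC. Of the 9 relatives of Dusp1, none was 2-fold from control in NEC, and 4 were higher (Dusp6, Dusp8, Dusp9 and Dusp16) and 1 lower (Dusp2) in PCI34051+NEC. Among these, Dusp6, the phosphatase of ERK, was at 17.8, 18.7 and 49.9 CPM. Of the 6 relatives of Zbtb16, none was higher and 1 (Bcl6b) was lower in PCI34051+NEC.

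The closest relative of Map3k6, Map3k5 (ASK1), was at 20.9, 20.5 and 9.53 CPM, level with control in NEC and lower in PCI34051+NEC. Of the 6 relatives of Slc10a6, 2 were higher than control in NEC (Slc10a2 and Slc10a4) and 3 lower (Slc10a3, Slc10a5 and Slc10a7). Over all measured genes 24.2% were higher and 22.9% lower there. The median log2 difference of these relatives was -0.22, against 6.01 for Slc10a6. Slc10a5 was at 28.6, 4.84 and 21.02 CPM, lowest in NEC. Slc10a4, an orphan carrier, was highest there as Slc10a6 was, at 3.02, 28.5 and 3.94 CPM. Slc10a2, the ileal bile acid carrier, was counted 4, 20 and 94 times, with the most counts in PCI34051+NEC.

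**Figure D2:**
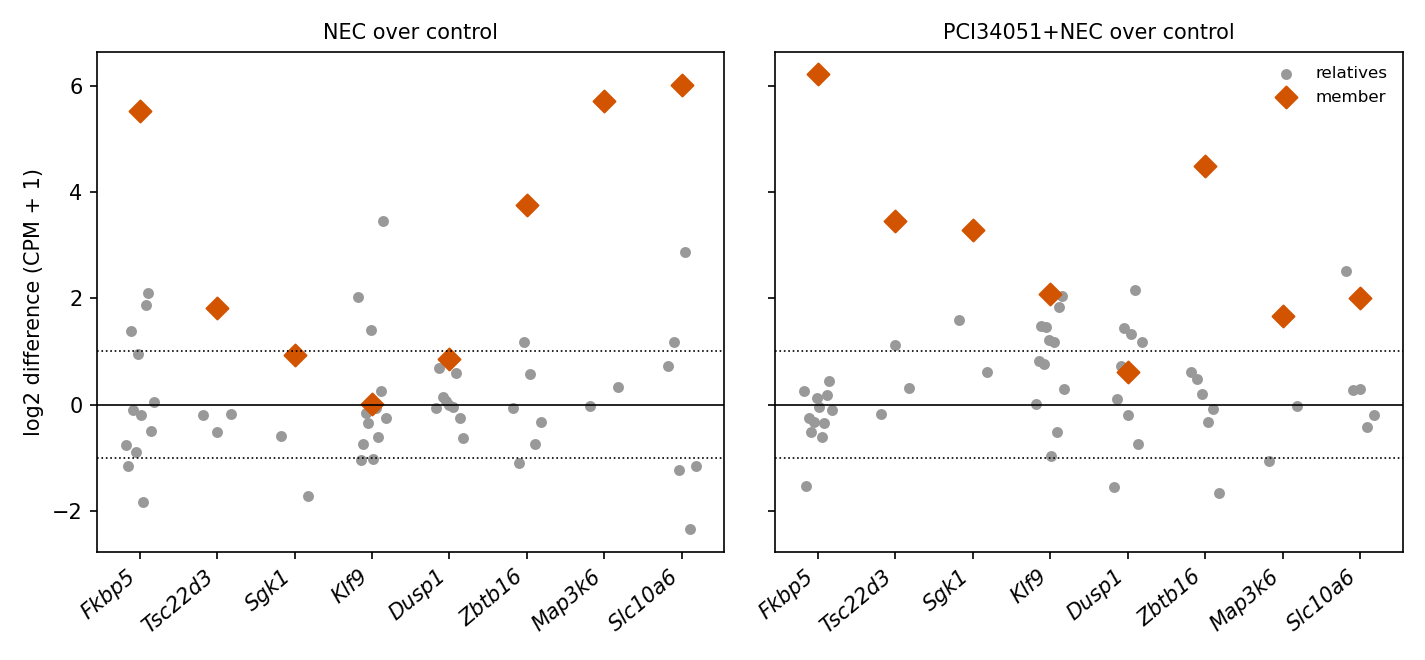
Log2 difference from the control library (CPM + 1) of 8 induced genes (orange diamonds) and their family relatives (grey points) in NEC (left) and PCI34051+NEC (right), with dotted lines at 2-fold. Fkbp5, at 5.53 and 6.22, lies above all of its measured relatives in both panels, while Klf9 on the left and Dusp1 on the right lie among theirs.

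Partner genes of the receptor were read as well. Of 15 measured HSP90-complex and import genes, 2 were higher (Ppp5c and Ipo13) and 2 lower (Dnajb1 and St13) in NEC than in control, with a median log2 difference of -0.22. In PCI34051+NEC 1 was lower than control (Ppid) and none higher, with a median of -0.12. Over all measured genes, 24.2% were higher and 22.9% lower in NEC, and 6.55% higher and 6.55% lower in PCI34051+NEC. St13, the HSP70-interacting protein of receptor assembly, was at 109, 44.8 and 90.9 CPM, low in NEC as Nr3c1 was. Ipo13, an importin that carries the receptor, was at 27.2, 79.5 and 25.9 CPM, and Ppid, a cyclophilin that takes the place of FKBP51 on HSP90, was at 20.1, 22.1 and 8.47 CPM. Of 15 coregulator genes, 1 was higher than control in PCI34051+NEC (Ppargc1a) and none lower. Ppargc1a, a coactivator of oxidative metabolism, was at 15.4, 25.3 and 60.8 CPM. Hdac2, a lysine deacetylase of corepressor complexes, was at 40.2, 87.9 and 32.4 CPM, highest in NEC.

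Genes of local steroid synthesis, conversion, clearance and export, not all of them enzymes, were measured in part, 12 of 18 listed in NEC against control. Of these, 4 were higher (Hsd11b1, Hsd11b2, Abcb1b and Cyp3a11) and 3 lower (H6pd, Cyp11a1 and Nr0b2), with a median of 0.04. In PCI34051+NEC 5 were higher than control and 1 lower (Nr0b2), with a median of 0.93. All measured genes gave 24.2% higher and 22.9% lower in NEC, and 6.55% higher and 6.55% lower in PCI34051+NEC. Hsd11b1, which regenerates active corticosterone inside cells, was counted 6, 72 and 26 times in control, NEC and PCI34051+NEC (0.378, 6.58 and 1.71 CPM). NEC was 17.4-fold above control (7.62 to 49.03). Hsd11b2, which inactivates the hormone, was counted 1, 23 and 7 times, so its NEC ratio of 33.4 has an interval of 5.42 to 1375. Cyp11a1, the side-chain cleavage enzyme that begins steroid synthesis, went the other way, at 40.9, 10.96 and 30.8 CPM. The last enzymes of corticosterone and aldosterone synthesis were at or near 0: Cyp21a1 had no count in any library, Cyp11b1 had 0, 0 and 2 counts, and Cyp11b2 had 0, 0 and 1. Abcb1b, a drug efflux pump that exports corticosteroids, was counted 6, 120 and 31 times, and Cyp3a11, which oxidises steroids, 3, 72 and 39 times, both highest in NEC.

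Genes whose protein products are controlled by SGK1 were also read, and an effect of the kinase on their RNA levels was not tested. Ndrg1, a stress-responsive gene, was at 181 CPM in control, 408 CPM in NEC and 1548 CPM in PCI34051+NEC, the order of Sgk1. Nedd4l, the ubiquitin ligase that SGK1 restrains, was highest in NEC, at 94.6, 393 and 144 CPM. Slc9a3, the apical sodium-proton exchanger, was at 9.63, 26.6 and 33.2 CPM, and Scnn1a, a subunit of the epithelial sodium channel, was lowest in NEC at 43.3, 19.7 and 70.03 CPM. The kinases and receptors that DUSP1 and MIG6 act on were read likewise. Of 8 such genes, 1 was higher than control (Erbb3) and none lower in PCI34051+NEC, where 6.55% of all measured genes were higher. Erbb3, a receptor of the EGF receptor family, was at 324, 196 and 732 CPM, and its relative Erbb2 at 89.7, 198 and 145 CPM.

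Inflammatory genes that the receptor is known to hold down were measured in part. Of 18 listed, 10 were measured in NEC against control and 9 in PCI34051+NEC against control. In NEC 3 were higher than control (Il6, Cxcl1 and Icam1) and 1 lower (Mmp9), with a median log2 difference of -0.24. Il6 and Cxcl1 rest on 15 and 17 counts in NEC, against 0 in control. In PCI34051+NEC 4 were lower than control (Cxcl10, Ptgs2, Vcam1 and Mmp9) and none higher, with a median of -0.63. Cxcl10 rests on 17 counts in control, against 0 in PCI34051+NEC. Shares over all measured genes were 24.2% higher and 22.9% lower in NEC, and 6.55% higher and 6.55% lower in PCI34051+NEC. Icam1, an adhesion molecule of inflamed vessels, was at 24.4, 58.1 and 17.1 CPM. Vcam1, another, was at 8.18, 3.84 and 2.63 CPM, and the matrix protease Mmp9 was at 28.1, 2.37 and 11.8 CPM. The 8 myeloid markers summed to 499, 99.0 and 200.1 CPM in control, NEC and PCI34051+NEC, most of it Csf1r (406, 58.8 and 160.4 CPM), and did not share 1 order. Adgre1 (5.22, 2.47 and 1.18 CPM) and Lyz2 (31.5, 15.3 and 7.62 CPM) were lowest in PCI34051+NEC. In NEC 2 of them were higher than control (Itgam and S100a8) and 3 lower (Ptprc, Cd68 and Csf1r). The 8 lymphocyte markers summed to 54.99, 3.11 and 2.43 CPM, with 4 at a count of 0 in NEC and 1 in PCI34051+NEC. The part of these cells in the levels was not tested.

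Immediate-early and clock genes include several that respond to glucocorticoids as well as to other stimuli. Of 11 immediate-early genes measured in NEC against control, 6 were higher and 2 lower. In PCI34051+NEC 2 of 12 were higher than control (Fos and Myc) and none lower. Fos was at 6.73, 32.5 and 70.9 CPM, whereas Egr1 (8.24, 34.5 and 7.29 CPM) and Nr4a1 (4.47, 30.96 and 2.76 CPM) were highest in NEC. Of 14 clock genes, 4 were higher (Nr1d1, Nr1d2, Ciart and Bhlhe41) and 3 lower (Npas2, Per2 and Bhlhe40) than control in NEC. In PCI34051+NEC 5 were higher (Clock, Cry2, Nr1d1, Nr1d2 and Ciart) and none lower. Beside both lists, 24.2% of all measured genes were higher and 22.9% lower in NEC, and 6.55% higher and 6.55% lower in PCI34051+NEC. Nr1d1, the repressor REV-ERBα, was at 5.22, 47.9 and 40.7 CPM, which is the order of Per1. Nr1d2 was at 12.7, 54.4 and 54.7 CPM, Cry2 at 48.6, 78.7 and 255 CPM, and Bhlhe40 at 341, 65.1 and 290.5 CPM. The hour of collection is not given in the labels used here.

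Over the 3 libraries, 8 genes were sought whose centred log2 levels lay nearest to the median profile of the 9 induced genes (-1.75, 0.36 and 1.39 in control, NEC and PCI34051+NEC), among 10339 genes at 10 CPM or more in some library. Likeness over 3 points is loose, and many genes share an order. The nearest were Slc25a48 (distance 0.0620, at 0.315, 4.38 and 10.4 CPM) and Fos (0.0646). They were followed by Slc7a15 (3.71, 16.5 and 33.2 CPM), Mt1, Vldlr (4.78, 21.3 and 57.5 CPM) and Depp1 (3.52, 13.8 and 33.8 CPM). Slc5a12 (listed at 0 in control, then 3.93 and 11.9 CPM) and Cyp2d26 (1.64, 15.4 and 23.6 CPM) completed the 8.

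Marker genes of other cell types differed between the libraries in the same direction as some of the members. Smooth muscle markers, of which 7 of 9 were at least 2-fold above control in NEC, summed to 1615, 12083 and 1543 CPM in control, NEC and PCI34051+NEC, with Myh11 at 268, 4215 and 286 CPM. Map3k6 and Slc10a6 also had their highest level in NEC, and the part of smooth muscle in their levels was not tested. Fibroblast markers summed to 872, 3397 and 857 CPM, neuron and glia markers to 297, 751 and 239 CPM, and endothelial markers to 154, 367 and 146 CPM, with all 3 sums highest in NEC. In that order, 5 of 7, 6 of 8 and 4 of 7 single markers were at least 2-fold above control in NEC. Of all measured genes, 24.2% were higher and 22.9% lower than control in NEC. Ret, of the neuron and glia list, was lowest in NEC, at 198, 47.9 and 147 CPM. Epithelial markers stood low in NEC, with 6 of 10 at least 2-fold below control and 2 above (Krt19 and Krt20). Epcam was at 2731, 404 and 2797 CPM, the order of Nr3c1.

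Between control and PCI34051+NEC, where Fkbp5, Zbtb16, Tsc22d3, Sgk1, Klf9 and Errfi1 were between 3.67-fold and 88.1-fold apart, marker sums differed for some cell types and not others. Epithelial sums were 8788 and 8883 CPM, yet within them Krt20 was at 15.9 and 82.8 CPM and Krt19 at 54.2 and 117 CPM. Smooth muscle sums were 1615 and 1543 CPM and fibroblast sums 872 and 857 CPM, while lymphocyte sums were 54.99 and 2.43 CPM and myeloid sums 499 and 200.1 CPM. Adipocyte markers, of a tissue where several of these genes are abundant, summed to 162, 198 and 367 CPM in control, NEC and PCI34051+NEC. Of these, Cidec was at 144, 84.3 and 318 CPM, most of the sum in control and PCI34051+NEC. Fabp4 was at 17.4, 110.0 and 48.8 CPM, highest in NEC. Adipoq, Plin1 and Lep had a count of 0 in both control and PCI34051+NEC and were counted 14, 20 and 3 times in NEC. Hepatocyte markers summed to 367, 222 and 216 CPM, most of it Ttr (353, 57.6 and 209 CPM). The other 6 of 7 were all higher than control in NEC, with Alb at 9.31, 100.4 and 0.394 CPM and Hp at 0.503, 31.4 and 3.81 CPM, and 5 of the 7 were lower again in PCI34051+NEC. Hp was thus highest in NEC and above control in PCI34051+NEC, as Map3k6 and Slc10a6 were. Over all measured genes, 24.2% were higher in NEC than in control, and 25.6% were lower in PCI34051+NEC than in NEC. Adrenal markers summed to 47.3, 19.5 and 35.1 CPM, with 4, 3 and 1 of 6 at a count of 0. The part of any of these cells in the members' levels was not tested.

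**Figure D3:**
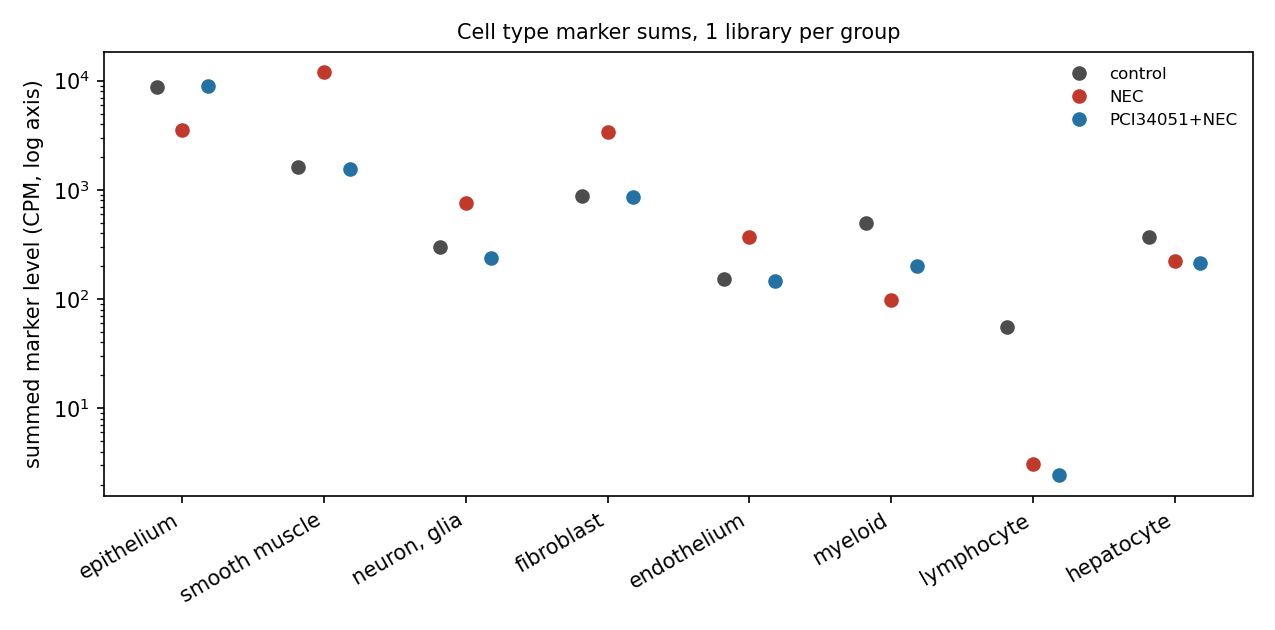
Summed marker level (CPM, log axis) of 8 cell types, 1 point for each of the 3 libraries. Smooth muscle markers lie at 12083 CPM in NEC against 1615 and 1543 CPM in the others, and lymphocyte markers lie at 54.99 CPM in control against 3.11 and 2.43 CPM.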

How the data were processed

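Per the labels' protocols, total intestinal RNA was sequenced from both fragment ends. What the authors deposited is a single table of raw counts by gene symbol. Per the submitters' processing notes the genome was mm10. Aligner, annotation and strand setting: not given in the sources used here. The third column's name lacks most digits of the compound's number, which its sample's description in turn writes in another order than the title. The match is therefore loose, made because no other column names an inhibitor. All PCI34051+NEC values rest on that match.

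The 3 libraries were scaled together by TMM (edgeR 4.0.16 under R 4.3.3). A floor of 3 counts is 0.189, 0.274 and 0.197 CPM in control, NEC and PCI34051+NEC. Intervals of CPM ratios are exact and binomial (Clopper-Pearson, conditional on the summed counts), and single levels per kilobase use exact Poisson intervals. Of the symbols, 21926 matched GENCODE release M21, the source of identifiers, coordinates and exon lengths. Sequence tables came from RefSeq. The work used Python 3.11.15 with pandas 2.3.3, matplotlib 3.10.9, numpy 2.4.6 and scipy 1.17.1, and the scripts were tested on simulated counts.

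The members and all gene lists were chosen with earlier results of these data known. Named genes are the 10 members, 6 genes chosen by name (Hsd11b1, Hsd11b2, Nr3c2, Fkbp4, Per1 and Pdk4), up to 4 of each list that differed most (of those reaching 5 CPM), family relatives and the 8 nearest profiles. Any others were chosen after their values were seen. Alternatives were DESeq2 1.42.0 size factors and other scalings, pseudocounts, filters, thinning, thresholds and removal of a trend with GC content and length.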

Additional observations from a re-analysis of the deposited data

How the results depend on the processing

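The 10 members gave 30 log2 differences over 3 comparisons, and 21 of them were at least 2-fold. Over 8 alternatives each, all 21 kept their sign, and 20 kept their side of the 2-fold mark. The exception was Slc10a6 in PCI34051+NEC against control, at 0.99 with a pseudocount of 4. Klf9 in NEC against control lay around 0 throughout, from -0.03 to 0.18. Dusp1 there passed the mark at 1.10, against 0.86, with the trend with GC content and length removed. For 6 results, counts of genes were recomputed under 12 alternatives, and 71 of the 72 values were within 1.5 times the reported count. The exception was the further glucocorticoid-induced genes in PCI34051+NEC against control with a 1.5-fold threshold, at 22 (20 higher and 2 lower) against 13. The share of all genes apart was 32.6% at that threshold. Scaling by total counts moved the median of all genes by -0.14 in PCI34051+NEC against NEC and by -0.18 against control. The 8 members higher than control in PCI34051+NEC were still 8, and 11 further genes were higher and 1 lower. No paired analysis was possible because each group has 1 library, and for the same reason no library could be left out of a comparison. A search in wider windows around the starts was not run, since only the promoter table was used. Depth limits the control values of Zbtb16 and Slc10a6, at 14 and 7 counts.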
